A study of Mus musculus with 131 samples.

Results

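The olfactory receptor cluster on chromosome 2 was examined in 2 stretches of 1.4 Mb, from 86 to 87.4 Mb and from 87.6 to 89 Mb of mouse build mm10. Its members were the 200 bp windows with at least 1 measured CpG cytosine in every one of 3 bisulfite libraries. There were 5521 such windows of 14000 in the stretches, 2593 in the first and 2928 in the second, out of 7638465 in the genome. The libraries came from C57BL/6J cells, with 1 library per group. The Gjb2-35delG ESC library was made from embryonic stem cells at passage 7 that carry the 35delG mutation of the connexin gene Gjb2. The Actin-RFP ESC library was made from stem cells at passage 10 with a red fluorescent Actin-RFP transgene, and the MEF library from mouse embryonic fibroblasts at passage 2, for which the labels name no mutation or transgene. Line, genotype and passage changed together between libraries and cannot be told apart. With no replicate library, every difference below is between single libraries, no test was run, and intervals cover counting error only. Single RFP and GFP cells of blastocysts, all labelled with the same embryonic day, were used as well, but only for an expression table described at the end of the results.

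Olfactory receptors are G protein-coupled receptors that bind odorants in the nose, and they form the largest gene family of mammals. Their genes lie in tandem clusters, mostly with a single coding exon and in AT-rich sequence poor in CpG. A mature olfactory sensory neuron expresses a single receptor allele, while in other cells the clusters are silent, and in sensory neurons the silent ones are packed in heterochromatin marked by histone H3 lysine 9 and H4 lysine 20 trimethylation. CpG methylation, which bisulfite sequencing reads, is laid down widely over mammalian genomes outside CpG islands.

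In RefSeq's annotation of GRCm38.p6, the assembly behind mm10, the stretches held 175 receptor genes and pseudogenes, 90 in the first and 85 in the second. Of these, 130 were protein-coding and 45 were pseudogenes. The other 15 annotated genes were pseudogenes as well, and no other protein-coding gene lay there. The median length of a receptor gene or pseudogene was 945 bp. RefSeq's table gave 114 start sequences for 113 of the genes, each from 250 bp before to 50 bp after the annotated start. In 78 of them the start codon ATG stood at the annotated start itself, so that the start was a coding start and the sequence before it may hold further exons or introns.

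The starts of 5 receptor genes are printed because they had the extreme methylation levels of the cluster, which are given further below, and Olfr1212 because its start held the most CpGs. All are on GRCm38.p6, written 5′ to 3′ along the gene's strand, with each CpG in capitals. Olfr1109 (chr2:87093346-87093645, minus strand) was lowest in both ESC lines. Olfr1047 (chr2:86228920-86229219, minus strand) was highest in Gjb2-35delG ESCs and Olfr1151 (chr2:87856927-87857226, plus strand) in Actin-RFP ESCs. Olfr1143 (chr2:87802141-87802440, plus strand) was lowest and Olfr1113 (chr2:87212644-87212943, plus strand) highest in MEF. Olfr1212 lies at chr2:88958218-88958517 on the plus strand. The last sequence is a start of Lhx2 (chr2:38339031-38339330, plus strand), the LIM-homeodomain factor needed for receptor gene expression, as an example of a CpG-rich start on the same chromosome.
Olfr1109: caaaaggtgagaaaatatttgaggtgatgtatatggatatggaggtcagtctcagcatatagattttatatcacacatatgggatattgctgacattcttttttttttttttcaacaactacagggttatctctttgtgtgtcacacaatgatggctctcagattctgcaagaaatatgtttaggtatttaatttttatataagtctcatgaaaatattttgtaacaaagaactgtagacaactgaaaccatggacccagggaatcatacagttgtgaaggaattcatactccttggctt
Olfr1047: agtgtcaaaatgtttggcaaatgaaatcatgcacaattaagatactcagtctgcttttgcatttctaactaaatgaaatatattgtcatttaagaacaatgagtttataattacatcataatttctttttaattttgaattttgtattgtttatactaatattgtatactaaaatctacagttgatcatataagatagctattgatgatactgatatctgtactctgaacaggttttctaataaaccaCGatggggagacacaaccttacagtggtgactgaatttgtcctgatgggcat
Olfr1151: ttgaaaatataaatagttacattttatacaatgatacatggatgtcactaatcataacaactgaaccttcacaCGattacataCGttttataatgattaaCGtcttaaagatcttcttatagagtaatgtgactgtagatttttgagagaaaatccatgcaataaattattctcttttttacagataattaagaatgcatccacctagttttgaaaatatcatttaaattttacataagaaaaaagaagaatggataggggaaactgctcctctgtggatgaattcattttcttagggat
Olfr1143: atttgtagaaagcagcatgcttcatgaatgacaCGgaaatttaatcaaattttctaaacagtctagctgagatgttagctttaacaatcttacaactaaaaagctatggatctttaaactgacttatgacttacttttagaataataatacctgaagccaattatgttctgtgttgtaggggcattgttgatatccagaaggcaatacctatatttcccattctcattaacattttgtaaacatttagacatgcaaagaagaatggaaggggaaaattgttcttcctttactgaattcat
Olfr1113: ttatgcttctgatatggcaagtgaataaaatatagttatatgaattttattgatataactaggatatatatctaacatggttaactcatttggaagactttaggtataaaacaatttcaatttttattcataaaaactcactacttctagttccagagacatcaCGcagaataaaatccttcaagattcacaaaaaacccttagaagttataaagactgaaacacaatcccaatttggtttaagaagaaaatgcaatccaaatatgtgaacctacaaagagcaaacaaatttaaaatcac
Olfr1212: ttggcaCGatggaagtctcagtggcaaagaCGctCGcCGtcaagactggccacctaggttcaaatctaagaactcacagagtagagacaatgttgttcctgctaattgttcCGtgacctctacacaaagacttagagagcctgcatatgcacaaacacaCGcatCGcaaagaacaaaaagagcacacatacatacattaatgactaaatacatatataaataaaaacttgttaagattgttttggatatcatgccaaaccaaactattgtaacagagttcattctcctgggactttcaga
Lhx2: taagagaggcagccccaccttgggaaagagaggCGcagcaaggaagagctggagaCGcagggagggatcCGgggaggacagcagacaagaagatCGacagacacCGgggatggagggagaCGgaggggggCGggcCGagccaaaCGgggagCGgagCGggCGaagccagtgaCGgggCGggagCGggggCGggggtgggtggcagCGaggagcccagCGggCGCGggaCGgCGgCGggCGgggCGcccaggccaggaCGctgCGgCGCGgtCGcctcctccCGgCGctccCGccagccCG

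The Olfr1109 sequence held no CpG, those of Olfr1047, Olfr1143 and Olfr1113 held 1 each, that of Olfr1151 held 3 and that of Olfr1212 held 7. The Lhx2 sequence held 34. Over the 114 receptor starts the median was 1 CpG and 36 held none (31.6%), against a median of 7 CpGs and 5.43% without any over all 32851 RefSeq start sequences. The mean GC content was 31.03% for receptor starts and 53.8% for all. The homeodomain core motif TAATTA was found on either strand in 30 of the 114 sequences (26.3%), against 5.29% of all start sequences. The related TAATGA, which Lhx2 and similar factors also bind, was found in 36 (31.6%), against 9.78% of all, and the Ebf core CCCNNGGG in 3 (2.63%), against 13.7% of all. The part of base composition in these shares was not tested, and a match describes letters only.

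Fewer windows of the stretches held a value than elsewhere on the chromosome. A value was present in 41.8% of their windows in the Gjb2-35delG ESC library, 46.1% in the Actin-RFP ESC library and 48.6% in the MEF library, against 64.7% to 65.6% of windows on the rest of chromosome 2 outside 80 to 95 Mb. The median member window had 18 calls in the Gjb2-35delG ESC library, 19 in the Actin-RFP ESC library and 22 in the MEF library, a call being the reading of a CpG cytosine in a sequenced fragment. A window without a CpG can hold no value, so these shares and calls reflect the number of CpGs as well as coverage. Member windows held a mean of 2.88 measured CpG cytosines in MEF, against 4.12 on the rest of chromosome 2. Whole libraries held between 287946900 and 319285707 calls. The gene starts of the stem cell markers Pou5f1, Nanog, Zfp42 and Tdgf1 were at 5.38% or less in both ESC libraries and between 41.8% and 70.7% in MEF, while that of Esrrb was at 51.3% in Gjb2-35delG ESCs, 28.3% in Actin-RFP ESCs and 37.9% in MEF. Of the fibroblast markers, Col3a1 stood at 64.8% in Gjb2-35delG ESCs, 49.04% in Actin-RFP ESCs and 22.5% in MEF, and Col1a2 at 38.9% in Gjb2-35delG ESCs, 29.8% in Actin-RFP ESCs and 17.4% in MEF, whereas the starts of Twist1, Twist2 and Prrx1 were below 20% in all 3 libraries.

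Methylation of the cluster was partial in both ESC lines and high in MEF. The mean window level was 66.0% in Gjb2-35delG ESCs, 31.95% in Actin-RFP ESCs and 77.3% in MEF, with SDs between windows of 20.4 points in Gjb2-35delG ESCs, 19.8 in Actin-RFP ESCs and 15.8 in MEF. The share of methylated calls, pooled over windows, was 67.3% (95% Wilson interval 67.0 to 67.5) in Gjb2-35delG ESCs, 34.6% (34.4 to 34.9) in Actin-RFP ESCs and 78.9% (78.7 to 79.1) in MEF. The counting intervals were thus under 1 point wide and did not overlap. The 2 stretches had like levels, 64.5% and 67.3% in Gjb2-35delG ESCs, beside 31% and 32.8% in Actin-RFP ESCs, and 77.7% and 76.9% in MEF.

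Single windows differed widely within a library. In Actin-RFP ESCs the windows piled up at low levels, with 30.2% of them below 20% methylation and 1.52% above 80%. In Gjb2-35delG ESCs 3.15% lay below 20% and 25.1% above 80%. In MEF 0.344%, or 19 windows, lay below 20% and 50.3% above 80%. Rest-of-chromosome windows with the same number of CpG cytosines, which serve as the matched comparison throughout, had 3.34% of windows below 20% and 27.5% above 80% in Gjb2-35delG ESCs. They had 19.5% below 20% and 1.86% above 80% in Actin-RFP ESCs, and 1.76% below 20% and 60.3% above 80% in MEF. The Actin-RFP ESC library therefore had more low windows in the cluster than in the matched windows, an excess that was small against CpG-poor bins of the chromosome (given further below), and the MEF library had fewer windows at either extreme.

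**Figure D1:**
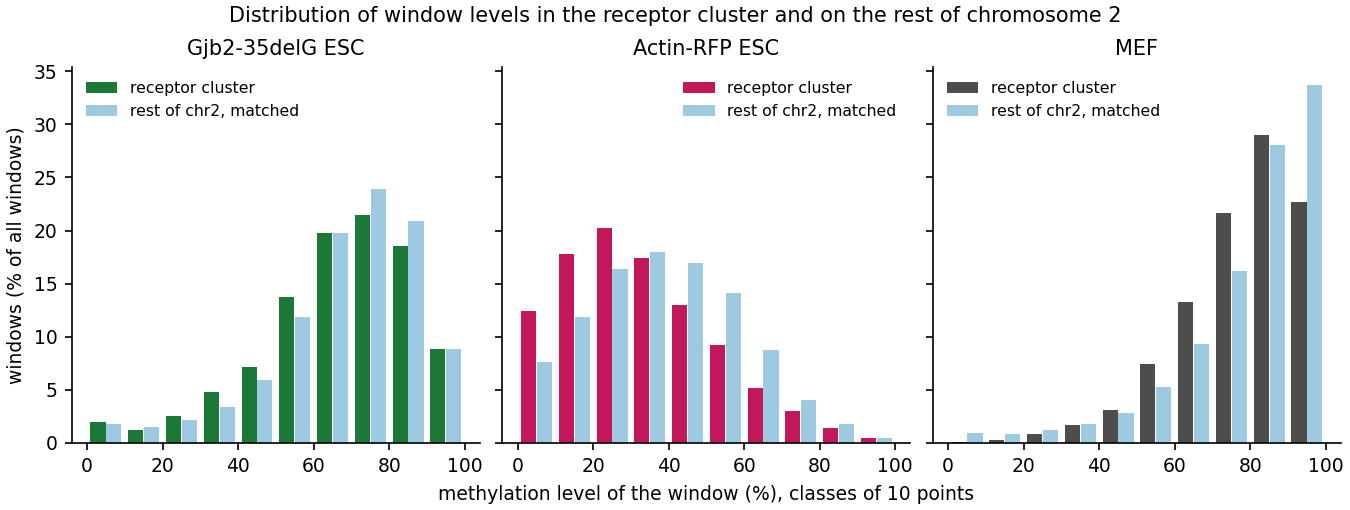
Share of windows (vertical axis, percent) in classes of 10 points of methylation (horizontal axis, percent) for the 5521 windows of the receptor cluster (coloured bars) and the rest of chromosome 2, weighted to the same numbers of CpG cytosines (light blue bars). In Actin-RFP ESCs 12.4% of cluster windows fall below 10%, against 7.64% of matched windows. In MEF 22.7% of cluster windows reach 90% or more, against 33.7% of matched windows.

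Set against windows with as many CpG cytosines on the rest of chromosome 2 (521746 windows), the cluster was lower in all 3 libraries. It stood at 66.0%, against 67.8%, in Gjb2-35delG ESCs (a difference of -1.79 points), at 31.95%, against 38.1%, in Actin-RFP ESCs (-6.17 points) and at 77.3%, against 79.4%, in MEF (-2.12 points). These sizes were read against 116 tiles of 1.4 Mb from the rest of the chromosome, treated the same way. In Actin-RFP ESCs the stretches differed from matched windows by -7.16 and -5.29 points, and 3 and 10 tiles were lower than these values. In Gjb2-35delG ESCs they differed by -3.26 and -0.48 points, with 14 and 35 tiles lower, and in MEF by -1.74 and -2.46 points, with 20 and 14 tiles lower. Both stretches thus lay toward the low end of the tiles in Actin-RFP ESCs, and well inside the spread of the tiles in the other libraries. Only 3 tiles held as few measured CpG cytosines as the stretches, and in Actin-RFP ESCs these differed by -6.90, -6.78 and 5.27 points. The same 3 tiles ran from -0.155 to 2.27 points in Gjb2-35delG ESCs and from -3.95 to 0.225 points in MEF. With at least 20 calls in every library, the difference was -0.0332 points in Gjb2-35delG ESCs and -0.123 points in MEF, while it was -4.72 points in Actin-RFP ESCs.

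**Figure D2:**
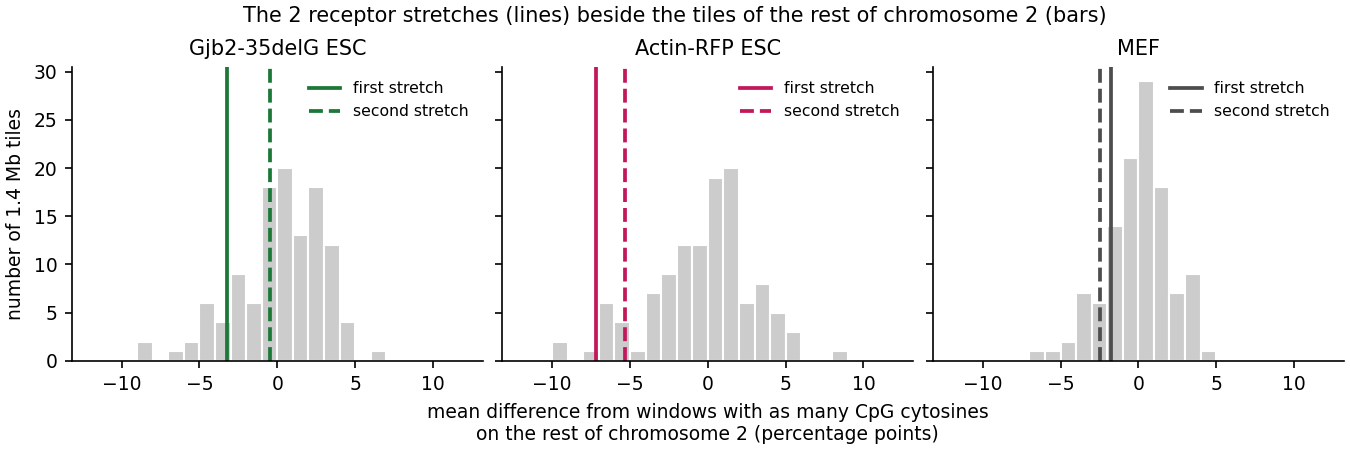
Number of 1.4 Mb tiles of the rest of chromosome 2 (grey bars, 116 tiles) by their mean difference from windows with as many CpG cytosines, in percentage points, with the first (solid line) and second (dashed line) receptor stretch. In Actin-RFP ESCs the lines stand at -7.16 and -5.29 points, where tiles range between -9.50 and 8.40 points.

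The difference between the cluster and the rest of the chromosome changed with the number of CpG cytosines in a window. Windows with 1 or 2 CpG cytosines made up 64.3% of the cluster's windows by the MEF library's count and 44.3% of those of the rest. In this class the cluster stood at 64.6%, against 67.7%, in Gjb2-35delG ESCs (-3.12 points), at 29.6%, against 37.2%, in Actin-RFP ESCs (-7.60 points) and at 75.5%, against 79.4%, in MEF (-3.93 points). Windows with 9 or more CpG cytosines turned the other way, by fewer points against CpG-poor bins (given further below). In this class the cluster stood at 77.9%, against 62.4% on the rest of the chromosome, in Gjb2-35delG ESCs (63 cluster windows), at 53.2%, against 37.7%, in Actin-RFP ESCs (89 windows) and at 88.4%, against 72.4%, in MEF (98 windows). In MEF no cluster window of this class lay below 20%, against 13.9% of such windows on the rest of the chromosome. In the CpG-poor bins alone this share was 2.74%. Within the cluster, the level thus climbed with each class of CpG number in all 3 libraries.

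Other CpG-poor parts of the chromosome stood close to the cluster in Actin-RFP ESCs. Bins of 100 kb in the cluster held between 557 and 868 measured CpG cytosines in MEF, with a median of 675, against a median of 1306 on the rest of chromosome 2. Another 326 bins of the rest fell in the same range of 557 to 868. Against windows of these bins with the same number of CpG cytosines, the cluster's difference was -2.52 points in Gjb2-35delG ESCs, -0.420 points in Actin-RFP ESCs and -1.48 points in MEF. By class, Actin-RFP ESCs differed by -1.07 points with 1 or 2 CpG cytosines, 0.164 points with 3 or 4, 1.94 points with 5 to 8 and 4.74 points with 9 or more. With 9 or more, the difference was 2.87 points in Gjb2-35delG ESCs and 3.58 points in MEF. The share of windows below 20% in Actin-RFP ESCs was also near that of CpG-poor bins, at 35.8% in the cluster, against 33.4%, with 1 or 2 CpG cytosines and 22.8%, against 22.3%, with 3 or 4. In Gjb2-35delG ESCs the CpG-poor bins stood at 67.5% with 1 or 2 CpG cytosines, against 67.7% on the whole rest of the chromosome, and in MEF at 77.7%, against 79.4%. This comparison was chosen after the values were seen.

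**Figure D3:**
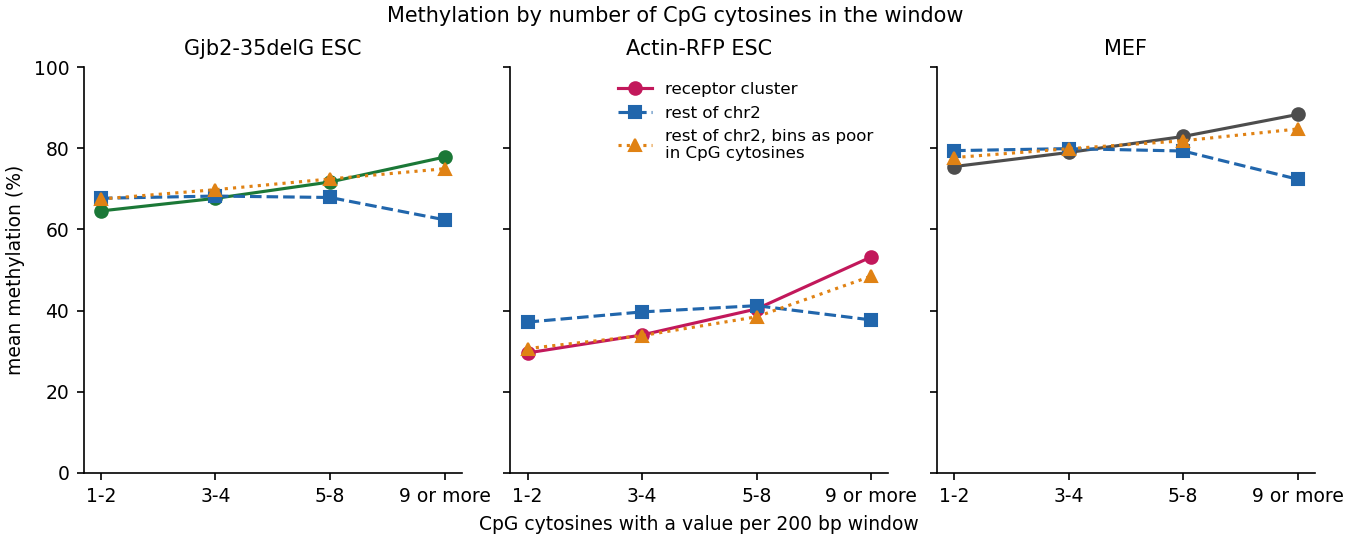
Mean methylation (vertical axis, percent) by the number of CpG cytosines with a value in a 200 bp window (horizontal axis) in the receptor cluster (solid line, circles), the rest of chromosome 2 (dashed line, squares) and those 100 kb bins of the rest that hold as few CpG cytosines as the cluster (dotted line, triangles). In Actin-RFP ESCs windows with 1 or 2 CpG cytosines stand at 29.6% in the cluster, 37.2% on the rest of the chromosome and 30.6% in the CpG-poor bins.

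The ESC libraries were below MEF over most of the cluster. The mean difference of Gjb2-35delG ESCs from MEF was -11.3 points in the cluster and -11.7 points in matched windows. The window was lower in Gjb2-35delG ESCs than in MEF in 3900 of 5521 cases (70.6%, against 75.5% on the rest of the chromosome). As ratios of levels, Gjb2-35delG ESCs kept 0.854 of the MEF level in the cluster and 0.853 in matched windows. The mean difference of Actin-RFP ESCs from MEF was -45.4 points in the cluster and -41.3 points in matched windows, with 0.413 of the MEF level in the cluster and 0.480 in matched windows. The window was lower in Actin-RFP ESCs in 5400 of 5521 cases (97.8%, against 95.9%). Between the ESC lines, Actin-RFP ESCs differed from Gjb2-35delG ESCs by -34.03 points in the cluster and by -29.6 points in matched windows. These larger differences of Actin-RFP ESCs in the cluster did not hold against the CpG-poor bins. There the drop from MEF was smaller in the cluster by 1.06 points. The cluster differed from those bins by -2.52 points in Gjb2-35delG ESCs and -0.420 points in Actin-RFP ESCs. The gap between the lines was thus not larger in the cluster than in those bins.

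Differences of at least 30 points were counted over windows with 20 or more calls in both libraries. Actin-RFP ESCs were that much lower than MEF in 1736 of 2180 windows (79.6%, Wilson interval 77.9 to 81.3), against 71.5% over the genome and 72.5% of matched windows of the rest of chromosome 2. No window was that much higher (0 of 2180, interval up to 0.176%), against 0.207% over the genome. Gjb2-35delG ESCs were that much lower than MEF in 260 of 2041 windows (12.7%, interval 11.4 to 14.3), which is near the 12.6% over the genome and not a result about the cluster. They were that much higher in 5 windows (0.245%, interval 0.105 to 0.572), against 1.97% over the genome and 2.002% of matched windows. Actin-RFP ESCs were that much lower than Gjb2-35delG ESCs in 1134 of 1871 windows (60.6%, interval 58.4 to 62.8), against 44.8% over the genome and 45.8% of matched windows, and that much higher in 1 window (0.0534%), against 0.0166% over the genome. These shares were not computed for the CpG-poor bins, from which the cluster's mean level in Actin-RFP ESCs differed by -0.420 points. The Actin-RFP ESC counts are therefore not read as a trait of the cluster.

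Along the cluster, the ESC libraries varied more between 100 kb bins than MEF did. The 28 bins ran between 58.6% and 70.6% in Gjb2-35delG ESCs with a median of 66.3%, between 23.7% and 40.4% in Actin-RFP ESCs with a median of 31.8%, and between 75.5% and 79.3% in MEF. The lowest bin of Gjb2-35delG ESCs was chr2:87000001-87100000, which is among the bins with few calls given further below, and the highest chr2:88400001-88500000. In Actin-RFP ESCs the lowest was chr2:88800001-88900000, followed by chr2:86800001-86900000 at 24.3%, which was also the second lowest of Gjb2-35delG ESCs at 59.9%. The highest of Actin-RFP ESCs was chr2:87700001-87800000, followed by its neighbour chr2:87800001-87900000 at 40.01%. Over the 28 bins the levels of the ESC lines moved together, with a Pearson r of 0.64 and a Spearman rho of 0.67. The r between MEF and Actin-RFP ESCs was 0.45, and between MEF and Gjb2-35delG ESCs 0.18. Bins share their libraries and their base composition, and these coefficients are descriptions.

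Coverage moved with the level in Gjb2-35delG ESCs. Calls per bin, as a ratio to MEF and scaled so that the rest of chromosome 2 is 1, had a median of 0.785 for Gjb2-35delG ESCs and 0.825 for Actin-RFP ESCs. In Gjb2-35delG ESCs the median was 0.680 in the first stretch and 0.889 in the second, and the lowest bin had 0.414. The Gjb2-35delG ESC level of a bin and its call ratio had a Pearson r of 0.50 over the 28 bins, against 0.05 in Actin-RFP ESCs, and the part of coverage in the levels was not tested. The ratio was under 0.6 in 5 bins for Gjb2-35delG ESCs and in 3 for Actin-RFP ESCs. Together these were 6 bins, among them the lowest bin of Gjb2-35delG ESCs (0.567). Without these bins, 4575 windows had a mean of 66.4% in Gjb2-35delG ESCs, 31.99% in Actin-RFP ESCs and 77.3% in MEF, close to the values of all windows.

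**Figure D4:**
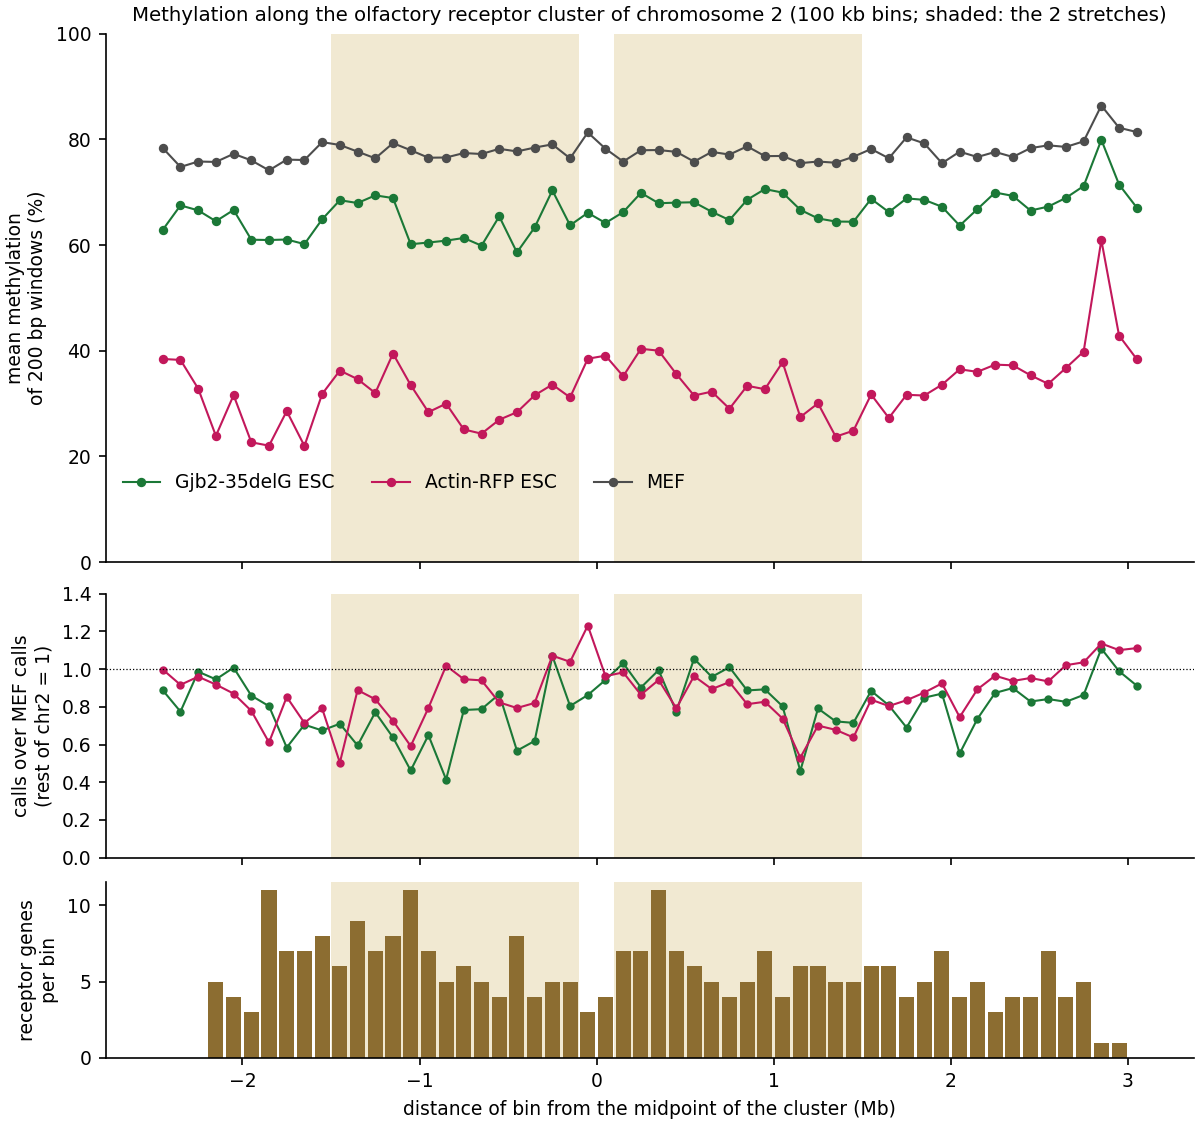
Mean methylation of 100 kb bins in the 3 libraries (top, percent), calls over MEF calls with the rest of chromosome 2 set to 1 (middle) and receptor genes and pseudogenes per bin (bottom), by distance from the midpoint of the cluster in Mb, with the 2 stretches shaded. MEF stays between 75.5% and 79.3% in the stretches, whereas Actin-RFP ESCs range between 23.7% and 40.4%.

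The edges of the stretches are set by coordinates, and in Actin-RFP ESCs the levels around them varied. In Gjb2-35delG ESCs the first 100 kb inside stood at 68.5% and the 100 kb before it at 64.9%, and the last 100 kb inside at 64.4% and the 100 kb after it at 68.7%. In Actin-RFP ESCs these values were 36.3% inside and 31.8% before the first edge, and 24.9% inside and 31.7% after the last. In MEF they were 78.9% inside and 79.5% before the first edge, and 76.7% inside and 78.2% after the last. The 200 kb between the stretches stood at 65.1% in Gjb2-35delG ESCs, 38.8% in Actin-RFP ESCs and 79.7% in MEF, above the cluster's mean in Actin-RFP ESCs and MEF. Bins with receptor genes that lie on chromosome 2 beside the stretches (20 bins with 109 receptor genes and pseudogenes) stood at 66.1% in Gjb2-35delG ESCs, 31.4% in Actin-RFP ESCs and 77.3% in MEF, all within 1 point of the stretches.

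Around receptor gene starts, methylation was higher over the first 1000 bp of the gene than over the 1000 bp on either side of it. Over the first 1000 bp of the gene, which is about the coding exon of a receptor gene, the mean was 68.3% in Gjb2-35delG ESCs, 30.9% in Actin-RFP ESCs and 80% in MEF (353 windows). Over the 1000 bp before the start it was 59.3% in Gjb2-35delG ESCs, 23.8% in Actin-RFP ESCs and 75.1% in MEF (220 windows). The gene was thus higher than the sequence before it by 9.03 points in Gjb2-35delG ESCs, 7.12 in Actin-RFP ESCs and 4.86 in MEF. From 1000 to 2000 bp after the start the level was 60.7% in Gjb2-35delG ESCs, 25.3% in Actin-RFP ESCs and 76.7% in MEF (200 windows). Of the 500 bp steps plotted, the lowest in Actin-RFP ESCs was that from 1000 to 1500 bp after the start, at 21.9%. Further out, Actin-RFP ESCs stood above the gene's own steps (30.5% and 31.3%). They had 33.3% from 4000 to 3500 bp before the start and 34.4% from 4000 to 4500 bp after it. In Gjb2-35delG ESCs the first 500 bp of the gene were the highest step (69.7%), but the next 500 bp were not (66.9%). In MEF the gene's steps were the highest plotted (80.1% and 79.9%). The gene was above the sequence before it in each stretch, by 7.13 and 10.7 points in Gjb2-35delG ESCs, by 6.75 and 7.45 points in Actin-RFP ESCs and 4.34 and 5.34 points in MEF. Among windows with exactly 2 CpG cytosines in every library, the gene was higher than the sequence before it by 7.70 points in Gjb2-35delG ESCs, 6.55 in Actin-RFP ESCs and 1.85 in MEF. In this subset the lowest level was that from 1000 to 2000 bp after the start, at 59.4% in Gjb2-35delG ESCs, 21.1% in Actin-RFP ESCs and 71.1% in MEF. These subsets were chosen after the profile was seen. On other autosomes, receptor genes were higher than the sequence before them by 4.53 points in Gjb2-35delG ESCs, 5.56 in Actin-RFP ESCs and 4.05 in MEF (2493 windows in genes and 1584 before them).

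**Figure D5:**
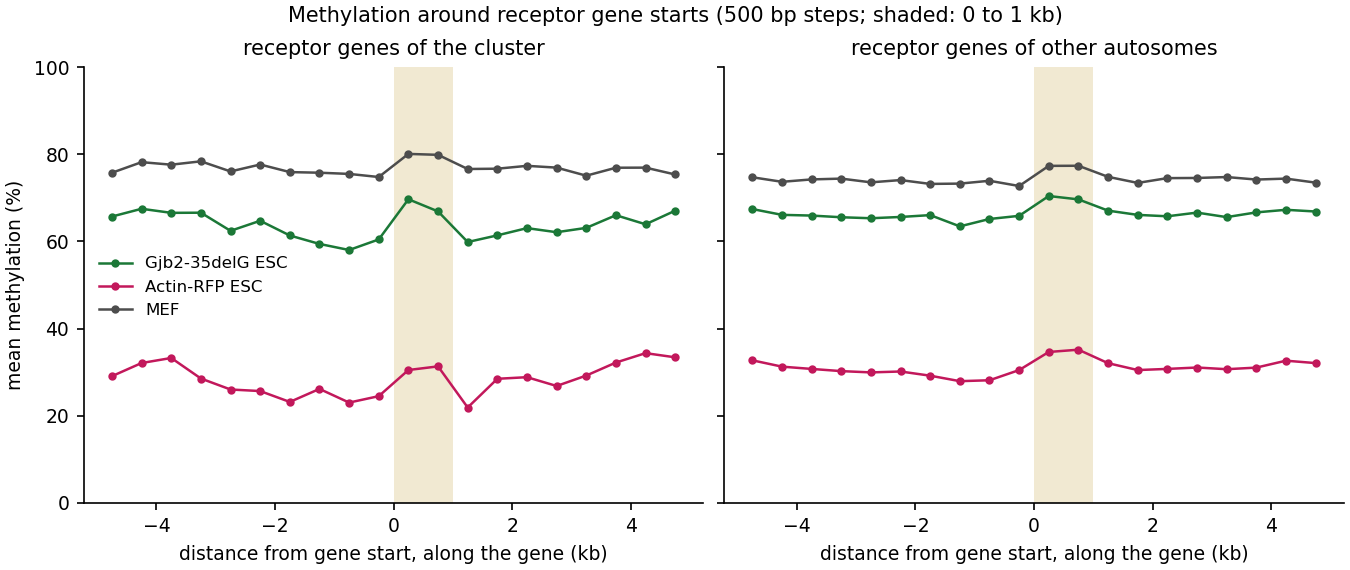
Mean methylation (vertical axis, percent) in 500 bp steps by distance from the annotated start along the gene (horizontal axis, kb), for 114 starts of the cluster (left) and the receptor genes of other autosomes (right). In the cluster the shaded first 1000 bp of the gene stand at 68.3%, 30.9% and 80% in Gjb2-35delG ESCs, Actin-RFP ESCs and MEF, above the 1000 bp before the start in every library.

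Compared with matched windows of the rest of the chromosome, the 1000 bp before the starts differed by -8.53 points in Gjb2-35delG ESCs, -14.1 points in Actin-RFP ESCs and -4.50 points in MEF. Receptor gene bodies (663 windows) differed by -2.78 points in Gjb2-35delG ESCs, -10.1 in Actin-RFP ESCs and -1.25 in MEF. Windows outside bodies and starts (4646 windows) differed by -1.36 points in Gjb2-35delG ESCs, -5.25 in Actin-RFP ESCs and -2.14 in MEF. Bodies of pseudogenes (113 windows) had 61.3% in Gjb2-35delG ESCs, 25.8% in Actin-RFP ESCs and 76.2% in MEF, and those of protein-coding receptors (550 windows) had 65.9%, 28.9% and 78.9% in these libraries. On the rest of chromosome 2, bodies of protein-coding genes differed from matched windows by -0.565 points in Gjb2-35delG ESCs, 0.618 in Actin-RFP ESCs and 1.34 in MEF. CpG-poor bins were not used as a reference here. In Actin-RFP ESCs they stood at 30.6% with 1 or 2 CpG cytosines, against 37.2% on the whole rest. On other autosomes, the 500 bp steps from 1000 bp before receptor starts differed by -10.1 and -7.76 points in Actin-RFP ESCs. These steps differed by -2.73 and -1.95 points in Gjb2-35delG ESCs and by -5.64 and -6.80 points in MEF.

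Of the 113 protein-coding receptor genes with a start sequence, 91 had at least 3 windows from 1000 bp before to 500 bp after the start. Their start levels had a median of 65.4% in Gjb2-35delG ESCs (25.6% to 94.2%), 26.8% in Actin-RFP ESCs (9.31% to 59.0%) and 77.9% in MEF (52.7% to 89.9%). Actin-RFP ESCs were below MEF in 91 of 91 genes and Gjb2-35delG ESCs in 83 of 91. The same count was not made over all genes, so it is not a result about receptor genes. Of single windows on the rest of chromosome 2, 95.9% were below MEF in Actin-RFP ESCs and 75.5% in Gjb2-35delG ESCs. In Actin-RFP ESCs 29 starts (31.9%) were below 20%, and none was in the other libraries. The share below 20% was larger over 24682 autosomal genes of any type, at 30.4% in Gjb2-35delG ESCs, 45.98% in Actin-RFP ESCs and 20.3% in MEF. These were measured over the same extent, but with every window that overlapped it, where receptor starts took windows centred in it. Above 80% were 8 receptor starts of Gjb2-35delG ESCs (8.79%, against 4.79% of all genes), none of Actin-RFP ESCs (0.0243% of all genes) and 36 of MEF (39.6%, against 21.4% of all genes). These genes have no known role beyond the binding of odorants that could order them, so they are given by level.

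Olfr1109 had the lowest start in both ESC lines, at 25.6% in Gjb2-35delG ESCs and 9.31% in the Actin-RFP line, against 75% in MEF (4 windows with 75, 98 and 129 calls). Its printed sequence has no CpG, so these values come from the windows around it. The RefSeq record of Olfr1109 spans chr2:87092457-87099886, so on the minus strand this start lies inside the record and not at its 5′ end. Calls over MEF calls in its 100 kb bin were 0.567 in Gjb2-35delG ESCs. Other low starts of Gjb2-35delG ESCs were those of Olfr1053 (36.4%), Olfr1160 (43.2%), Olfr1157 (44.6%) and Olfr1098 (45.2%). In Actin-RFP ESCs the low starts after Olfr1109 were those of Olfr1096 (9.74%), Olfr1098 (10.9%), Olfr1110 (11.005%) and Olfr1079 (12.4%). Olfr1098 was thus among the lowest 5 in both lines, and it had 66.0% in MEF.

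Olfr1047 had the highest start of Gjb2-35delG ESCs at 94.2%, against 31.7% in Actin-RFP ESCs and 89.6% in MEF, where it was the second highest. Olfr1105 (83.0%), Olfr1162 (82.7%), Olfr1049 (82.2%) and Olfr1186 (81.5%) followed in Gjb2-35delG ESCs. Olfr1162 had 71.5% in MEF, so its start was higher in the Gjb2-35delG ESC library. In Actin-RFP ESCs the highest starts were those of Olfr1151 (59.0%), Olfr1065 (57.7%), Olfr1055 (51.1%), Olfr1162 (46.2%) and Olfr1062 (43.9%). Olfr1151 had 75.2% in Gjb2-35delG ESCs and 85.0% in MEF.

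In MEF the lowest start was that of Olfr1143 at 52.7%, with 54.3% in Gjb2-35delG ESCs and 17.5% in the Actin-RFP line. Olfr1211 (60.4%), Olfr1116 (62.5%), Olfr152 (64.2%) and Olfr1155 (64.3%) came next in MEF. The start of Olfr1211, on the minus strand, also lies inside its record of chr2:88929378-88934526. The highest starts of MEF were those of Olfr1113 (89.9%), Olfr1047, Olfr73 (89.5%), Olfr1051 (88.7%) and Olfr1200 (88.5%). Olfr1113 had 67.2% in Gjb2-35delG ESCs and 30.96% in the Actin-RFP line. Over the 91 genes the start levels of the ESC lines had a Pearson r of 0.64, those of Gjb2-35delG ESCs and MEF 0.40, and those of Actin-RFP ESCs and MEF 0.42. With a few windows per gene and about 50 to 240 calls in Actin-RFP ESCs for the genes named, neighbours in these orders are not told apart by counting error.

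Single windows were named among 1304 that had at least 3 CpG cytosines and 20 calls in every library. A pair of adjoining windows, chr2:88711201-88711400 and chr2:88711401-88711600, lay about 10 kb from Olfr1196, between genes, and had 10 and 12 CpG cytosines in MEF. In Gjb2-35delG ESCs they had 19.5% (12 of 71 calls methylated) and 14.4% (25 of 168), in Actin-RFP ESCs 8.54% (8 of 82) and 8.27% (16 of 197), and in MEF 88.4% (64 of 74) and 89.5% (178 of 200). Both ESC lines were thus low at a place that was highly methylated in MEF, and 168 to 200 calls in the second window make this the best covered of the named contrasts. A second such place was chr2:87105201-87105400, 2147 bp from Olfr259, with 5.28% in Gjb2-35delG ESCs, 17.9% in Actin-RFP ESCs and 93.1% in MEF (29, 28 and 42 calls).

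Other windows set the lines apart. At chr2:87165401-87165600 in the pseudogene Nlk-ps1, Gjb2-35delG ESCs had 0 of 26 calls methylated, Actin-RFP ESCs 34.9% and MEF 80.4%. At chr2:88070601-88070800 in Olfr1163, Actin-RFP ESCs had 9.46%, Gjb2-35delG ESCs 78.0% and MEF 100% (25 of 25 calls). At chr2:86785001-86785200 in Olfr1093, Actin-RFP ESCs had 3.57% and Gjb2-35delG ESCs 11 of 22 calls methylated, against 88.6% in MEF. The lowest MEF window, chr2:88356201-88356400, was low in every library, with 11.3% in Gjb2-35delG ESCs, 5.56% in Actin-RFP ESCs and 10.3% in MEF. The reverse was rare. At chr2:86318801-86319000, with 8 CpG cytosines and 3615 bp from Olfr1053, the level was 67.3% in Gjb2-35delG ESCs, 42.1% in Actin-RFP ESCs and 40.2% in MEF (95, 120 and 94 calls). At chr2:88213201-88213400, the largest difference upward in Actin-RFP ESCs, the level was 56.9%, against 46.5% in MEF.

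Receptor gene bins of the other autosomes (186 bins of 100 kb with 901 receptor genes and pseudogenes, 45824 windows) stood at 67.9% in Gjb2-35delG ESCs, 34.8% in Actin-RFP ESCs and 74.8% in MEF. The cluster differed from matched windows of the rest of chromosome 2 by -1.79 points in Gjb2-35delG ESCs, -6.17 in Actin-RFP ESCs and -2.12 in MEF. The bins of other autosomes differed by 0.291 points in Gjb2-35delG ESCs, -3.49 in Actin-RFP ESCs and -4.33 in MEF. In Actin-RFP ESCs 30.2% of windows in the cluster were below 20%, against 25.8% in the bins of other autosomes. By chromosome, the receptor bins ran between 28.3% on chromosome 1 and 41.5% on chromosome 15 in Actin-RFP ESCs, and between 71.4% on chromosome 13 and 78.6% on chromosome 6 in MEF. Both ranges hold the cluster's values of 31.95% in Actin-RFP ESCs and 77.3% in MEF.

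Genes that act on receptor choice and odour transduction were mostly measured at CpG-rich starts outside the cluster. Of 18 such genes 13 could be measured, and 7 were below 20% in Gjb2-35delG ESCs, 10 in Actin-RFP ESCs and 6 in MEF, with medians of 15.7% in Gjb2-35delG ESCs, 9.96% in Actin-RFP ESCs and 32.8% in MEF. Over all autosomal genes, whose shares below 20% are given above, the median level was 43.4% in Gjb2-35delG ESCs, 22.6% in Actin-RFP ESCs and 53.5% in MEF. The 2 starts of Lhx2 together were at 14.1% in Gjb2-35delG ESCs, 4.45% in Actin-RFP ESCs and 8.21% in MEF. The start of its cofactor Ldb1 was at 5.38% in Gjb2-35delG ESCs and 5.33% in the Actin-RFP line, against 32.8% in MEF. Cnga4, a subunit of the olfactory cyclic-nucleotide-gated channel, had 30.2% in Gjb2-35delG ESCs and 17.7% in the Actin-RFP line, against 73.5% in MEF. Cngb1, another subunit, had 78.2% in Gjb2-35delG ESCs and 39.9% in the Actin-RFP line, against 78.3% in MEF. Of 11 heterochromatin enzymes and readers, all measured, 9 were below 20% in Gjb2-35delG ESCs, 10 in Actin-RFP ESCs and 5 in MEF. The H3 lysine 9 methyltransferase Setdb1 was above 20% in both lines, at 23.6% in Gjb2-35delG ESCs and 24.98% in the Actin-RFP line, against 32% in MEF.

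The expression table of single blastocyst cells, which compares RFP cells with GFP cells, listed 13927 genes and none of the 175 receptor genes of the stretches. All RFP and GFP cells of this table were labelled with the same embryonic day, so the groups did not differ in labelled age. The single receptor gene listed from any chromosome was Olfr851, with a value above 0 in 1 of 55 RFP cells and 0 of 40 GFP cells. No source used here gives the filter that chose the listed genes. No expression was measured in the lines from which the bisulfite libraries were made.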

How the data were processed

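Bisulfite libraries of 1 Gjb2-35delG ESC, 1 Actin-RFP ESC and 1 MEF sample were used, with groups taken from the labels. For each 200 bp window the authors deposited a methylation fraction averaged over its CpG cytosines, counts of methylated and unmethylated calls, and a further count that no header or label explains. It was read here, from its values, as the number of CpG cytosines behind the fraction. Set against RefSeq start sequences, it was at most the number of CpG cytosines of both strands in 97.3% to 98.4% of 11528 windows and equal to it in 38.5% to 48.4%. There were at least 5 calls for each unit of this count. The deposited single-cell table holds a signal, gene counts scaled per cell by the authors. Build mm10 is named in the submitters' processing notes, and no source used here gives the aligner or the methylation caller.

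The main level is the mean of window fractions over windows with a value in all 3 libraries. Matched values give each window the mean of comparison windows with the same count of CpG cytosines in that library, with counts above 20 in a single class. Tiles of 1.4 Mb and bins of 100 kb were treated alike. Wilson intervals at 95% cover counting error only, since copies of a fragment are not told apart. Symbols, positions and start sequences came from RefSeq tables of GRCm38.p6, and gene starts ran from 1000 bp before to 500 bp after, with at least 3 windows. Markers without a start sequence or with under 3 windows were not analysed here.

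The stretches, lists, thresholds and alternatives were chosen with earlier results of these data known. The 5 lowest and 5 highest receptor starts per library were named, as were the 4 windows with the lowest MEF level and the 4 at each end of each ESC line's difference from MEF, of which those at most in contrast are printed, and the lowest and highest 100 kb bins. Computations used Python 3.11.15, numpy 2.4.6, pandas 2.3.3 and matplotlib 3.10.9. Alternatives were pooled calls, minimum calls, the median, single stretches, other matchings and comparison windows, other thresholds and other extents of the gene start.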

Additional observations from a re-analysis of the deposited data

How the results depend on the processing

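All levels and differences rest on single libraries, and with about 20 calls a window the counting error of a window is wide while that of the cluster's mean is under 1 point. No paired analysis was possible because there was 1 library per group and no test was run. Matching on GC content beside the number of CpG cytosines was not run, since no genome was used here. The lower level of both ESC lines against MEF kept its direction in the cluster under every alternative run for it. The cluster stayed below matched windows in all 3 libraries under every alternative run for it, but in each library the size was under 1 point under at least 1 of them, in Actin-RFP ESCs against CpG-poor bins. The excess, meaning the ESC minus MEF difference in the cluster minus that in matched windows, was 0.333 points in Gjb2-35delG ESCs, with no stable sign, and -4.05 points in Actin-RFP ESCs.

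The Gjb2-35delG ESC excess turned to -0.0342 points with pooled calls, -1.53 points in the first stretch, -1.57 points against windows outside annotated genes and -1.04 points against CpG-poor bins, and the Actin-RFP ESC excess turned to 1.06 points against those bins. The cause was not tested. Other values follow by alternative, with Gjb2-35delG ESCs, Actin-RFP ESCs and MEF each named.

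With pooled calls the level was 67.3% in Gjb2-35delG ESCs, 34.6% in Actin-RFP ESCs and 78.9% in MEF, the difference from matched windows -0.65, -4.50 and -0.615 points in these libraries, and Actin-RFP ESCs minus MEF -44.3 points. With 10 calls the level was 32.3% in Actin-RFP ESCs and 77.6% in MEF. With 20 calls in every library it was 68.0% in Gjb2-35delG ESCs, 35.1% in Actin-RFP ESCs and 79.8% in MEF. There the difference from matched windows was -0.0332, -4.72 and -0.123 points in these libraries. ESC minus MEF was -11.7 points in Gjb2-35delG ESCs and -44.6 points in the Actin-RFP line, whose excess was -4.60 points. Windows below 20% were 1.28% in Gjb2-35delG ESCs and 0.0609% in MEF. By medians the level was 69.1% in Gjb2-35delG ESCs, 29.8% in Actin-RFP ESCs and 80.2% in MEF, and the difference from matched windows -2.31, -7.74 and -4.29 points. The excess was 1.98 points in Gjb2-35delG ESCs and -3.45 points in the Actin-RFP line, and Actin-RFP ESCs minus MEF was -50.4 points.

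In the first stretch the level was 64.5% in Gjb2-35delG ESCs, 31% in Actin-RFP ESCs and 77.7% in MEF, and the difference from matched windows -3.26, -7.16 and -1.74 points. ESC minus MEF was -13.3 points in Gjb2-35delG ESCs and -46.7 points in the Actin-RFP line, with an excess of -5.42 points in the second of these lines. In the second stretch the level was 67.3% in Gjb2-35delG ESCs, 32.8% in Actin-RFP ESCs and 76.9% in MEF, and the difference from matched windows -0.481, -5.29 and -2.46 points. ESC minus MEF was -9.62 points with an excess of 1.98 points in Gjb2-35delG ESCs, and -44.1 points with an excess of -2.83 points in Actin-RFP ESCs.

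The difference from comparison windows in Gjb2-35delG ESCs, Actin-RFP ESCs and MEF was -2.93, -7.95 and -4.29 points where all libraries had the same number of CpG cytosines, -1.349, -6.79 and -1.65 points without matching, -2.23, -5.10 and -0.655 points outside annotated genes, and -2.52, -0.420 and -1.48 points against CpG-poor bins. Against other autosomes it was -5.79 points in Actin-RFP ESCs. The Actin-RFP ESC excess was -3.66 points with the same number of CpG cytosines, -5.14 points without matching, -4.44 points outside genes and -3.69 points against other autosomes. The Gjb2-35delG ESC excess was 1.354 points with the same number of CpG cytosines. The alternatives chosen after seeing the data were the CpG-poor bins, each library's own windows, which gave 32.5% in Actin-RFP ESCs, and leaving out bins of low call ratio. The last gave 66.4% in Gjb2-35delG ESCs, -1.40 points from matched windows, -10.9 points from MEF and an excess of 0.766 points.

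With thresholds of 90% and 10%, 7.79% of windows were high and 1.97% low in Gjb2-35delG ESCs, beside 0.435% and 12.4% in Actin-RFP ESCs, and 21.1% and 0.0362% in MEF. Gjb2-35delG ESCs were lower than MEF in 26.3% and higher in 1.91% of windows at 20 points, and in 6.03% and 0% at 40 points. At 30 points they were higher in 2.01% of windows with 5 calls and 0% with 30 calls, and Actin-RFP ESCs in 0.0906% with 5 calls. The shares of other windows past these settings were not computed, so these differences from MEF are not results about the cluster. Receptor gene starts were also set against windows outside genes and starts, each matched. At the main extent (402 windows) the starts differed by -2.46 points in Gjb2-35delG ESCs, -6.18 in Actin-RFP ESCs and -0.103 in MEF. For 250 bp before to 50 bp after (84 windows) the values were -3.96, -6.73 and -2.79 points in these libraries. For 500 bp on either side (296 windows) they were -0.319, -4.99 and 0.560 points, so MEF had no stable sign.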

Other observations

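The 200 kb between the stretches, left out of the cluster by its coordinates, differed from windows with as many CpG cytosines on the rest of chromosome 2 by -2.67 points in Gjb2-35delG ESCs, 0.237 points in Actin-RFP ESCs and 0.436 points in MEF. In Actin-RFP ESCs it stood at 38.8%, against 31.2% in the last 100 kb of the first stretch and 35.2% in the first 100 kb of the second. It holds 3 and 4 receptor genes per 100 kb, against a median of 6 in the stretches, and Pramel6 and Pramel7, which are expressed in early embryos and stem cells.

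Beyond the cluster, the bin chr2:90300001-90400000, which holds 1 receptor gene, had the highest level of the bins plotted around the cluster in all 3 libraries, at 79.9% in Gjb2-35delG ESCs, 60.9% in Actin-RFP ESCs and 86.4% in MEF. It differed from matched windows by 13.4 points in Gjb2-35delG ESCs, 22.1 points in Actin-RFP ESCs and 8.17 points in MEF. It rests on 62 windows, against 130 and 328 in the bins on either side. The cause was not tested.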
